A study of Mus musculus with 7 samples.

Results

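The OAS family genes were read from mouse spleen monocytes on 7 Affymetrix Mouse Gene 2.0 ST arrays. Members were the genes Oas1a, Oas2, Oas3, Oasl1 and Oasl2, each taken from a probe set annotated with that symbol alone. Of the 5 genes, 4 had such a probe set, out of 22180 genes with a single-symbol probe set in the deposited table. Each of the 4 had exactly 1 such probe set. Oas1a was listed only on a probe set shared with its paralogue Oas1g, so no value is given for it.

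The samples came from 2 mice and 5 groups, and all of them had the wild-type form of EPCR, an endothelial receptor of protein C. Mouse 1 gave unstimulated cells and cells treated for 3 h with 400 ng/ml HL7G, 2 µg/ml R848, 2.5 µM CpG B or 1 µg/ml poly I:C. Mouse 2 gave unstimulated and HL7G-treated cells, so those groups had n = 2 and each agonist group had 1 array. HL7G is a monoclonal antiphospholipid antibody, R848 activates TLR7, CpG B is a DNA oligonucleotide that activates TLR9, and poly I:C mimics double-stranded RNA. The sources used here do not give the strain, age or sex of the mice, the selection of the monocytes or the culture time of unstimulated cells. An IgG condition was not analysed here. Ly6c2 and Ccr2, which mark classical monocytes, stayed below a log2 level of 5 on every array, the level required for testing. Of the other monocyte markers, Itgam and Fcgr1 also stayed below 5. Irf8 and Cx3cr1 read above 5 on every array, at 5.42 to 8.49 and 5.13 to 6.50. Csf1r, Lyz2 and Cd14 reached 5 on some arrays.

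OAS proteins are interferon-induced sensors of double-stranded RNA. When they bind it they join ATP into short oligoadenylates, and these are the second messengers of an antiviral response in which cellular and viral RNA is degraded. Oas1a, Oas2 and Oas3 encode enzymes of this kind, and Oas3 is the largest because it is built of repeated OAS units. Oasl1 and Oasl2 encode OAS-like proteins that carry ubiquitin-like domains at their C-terminal end. Oasl2 keeps the synthetic activity, while Oasl1 lacks it and is known as a repressor of Irf7 translation. In leukocytes, type I interferon induces these genes through ISGF3, a complex with the subunits Stat2 and Irf9 that binds the interferon-stimulated response element (ISRE) in their promoters.

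Promoter sequences are shown because the members moved together across the arrays and the ISRE is the known entry point of interferon signals to this family. RefSeq promoter windows (GRCm38.p6, 250 bases before to 50 after the gene's start) were found for 4 of the 5 members, Oas1a, Oas3, Oasl1 and Oasl2. Each was searched on both strands for an ISRE core, GAAANNGAAA. Only bases that precede the whole annotated gene are printed, 5′ to 3′ on the gene's strand, and capitals mark an ISRE core.
Oas3 (chr5:120777685-120777909, minus strand): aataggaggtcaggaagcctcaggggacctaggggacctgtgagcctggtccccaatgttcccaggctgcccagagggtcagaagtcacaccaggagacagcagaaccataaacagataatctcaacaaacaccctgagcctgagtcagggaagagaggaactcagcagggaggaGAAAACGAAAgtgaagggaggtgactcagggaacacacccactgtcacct
Oasl1 (chr5:114922990-114923142, plus strand): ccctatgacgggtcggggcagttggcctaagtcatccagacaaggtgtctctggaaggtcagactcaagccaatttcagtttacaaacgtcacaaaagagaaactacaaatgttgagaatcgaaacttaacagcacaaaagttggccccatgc
Oasl2 (chr5:114896684-114896925, plus strand): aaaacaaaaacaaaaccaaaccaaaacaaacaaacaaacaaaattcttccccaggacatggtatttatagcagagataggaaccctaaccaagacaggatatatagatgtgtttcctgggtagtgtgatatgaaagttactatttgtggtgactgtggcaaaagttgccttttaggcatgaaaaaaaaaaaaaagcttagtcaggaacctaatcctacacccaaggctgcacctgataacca
The Oas3 window held 1 match, 75 to 66 bases before the start. The Oas1a window held 2 overlapping matches, the first 20 to 11 and the second 14 to 5 bases before the start. Both reach into the annotated span of Oas1a. The bases that precede the whole Oas1a gene held 0 matches, and its sequence is not printed. No match lay in the windows of Oasl1 and Oasl2, which says only that these letters are not there. Over all 32851 RefSeq promoter windows, 3.44% held the ISRE core. The GAS core of STAT dimers (TTCNNNGAA, present in 8.3% of windows) was found in Oas1a alone among the 4. The NF-kB core GGGNNNNNCC was common, at 50.8% of windows, and was found in those of Oas1a, Oas3 and Oasl1. In Oas3 and Oasl1 these matches lay within the annotated gene span, outside the bases printed.

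All 4 measured members read higher on each stimulated array than on either unstimulated array. In the fit across all genes (limma, 7 arrays, 5 groups), Oasl1 rose with HL7G, and Oas2, Oas3 and Oasl2 had differences of similar size whose adjusted p missed 0.05. With the mouse as a block, which fits the shared animals, Oas2 and Oas3 also passed and 3 members were called, beside 16.6% of all genes. The block leaves only 1 residual degree of freedom. No agonist difference passed, with 1 array per agonist. The HL7G values of the mice lay far apart, and the number of members called changed with the array left out.

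Oasl1 encodes the OAS-like protein without synthetic activity. Without stimulus its log2 level was 5.13 in mouse 1 and 4.61 in mouse 2. It was 7.77 and 5.94 with HL7G in that order, 6.71 with R848, 6.25 with CpG B and 6.52 with poly I:C. The HL7G sample of mouse 1 stood above the rest and that of mouse 2 below all 3 agonist samples, with no overlap between stimulated and unstimulated arrays. Oasl1 rose with HL7G by 1.98 on the log2 scale (SE 0.55, n = 2 per group, limma adjusted p = 0.0489), with 2.64 in mouse 1 and 1.33 in mouse 2. Readings under 5, as in several unstimulated samples, were not shown to be above background, so differences from them are given as log2 values and not as folds.

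Oas2 followed the same order. Without stimulus it read 5.09 in mouse 1 and 4.61 in mouse 2, against 7.54 and 5.76 with HL7G, 6.62 with R848, 6.35 with CpG B and 6.24 with poly I:C. The 5 stimulated values again lay above both unstimulated values. The HL7G difference was 1.80 ± 0.54 (adjusted p = 0.0588, and 0.0151 with the mouse as a block), or 2.45 in mouse 1 and 1.15 in mouse 2.

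Oas3, the repeated-unit synthetase, had the closest unstimulated values. They were 5.43 in mouse 1 and 5.35 in mouse 2, against 7.47 and 5.94 with HL7G, 6.82 with R848, 6.12 with CpG B and 6.35 with poly I:C. Its HL7G difference of 1.31 ± 0.46 was the smallest of the 4 (adjusted p = 0.0907, and 0.0475 with the block). The values behind it were 2.04 in mouse 1 and 0.58 in mouse 2.

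Oasl2, the OAS-like gene with synthetic activity, was the member whose HL7G difference was least alike in the mice. Without stimulus it read 4.16 in mouse 1 and 4.63 in mouse 2, against 7.23 and 5.07 with HL7G, 5.58 with R848, 5.51 with CpG B and 5.77 with poly I:C. The HL7G sample of mouse 2 was only slightly above its own unstimulated sample, whereas that of mouse 1 was the highest of the 7. The HL7G difference was 1.76 ± 0.63 (limma adjusted p = 0.0944), with 3.07 in mouse 1 and 0.44 in mouse 2, and both unstimulated readings were under 5. Oasl2 reached the testing level only on stimulated arrays, which favours a higher call.

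**Figure D1:**
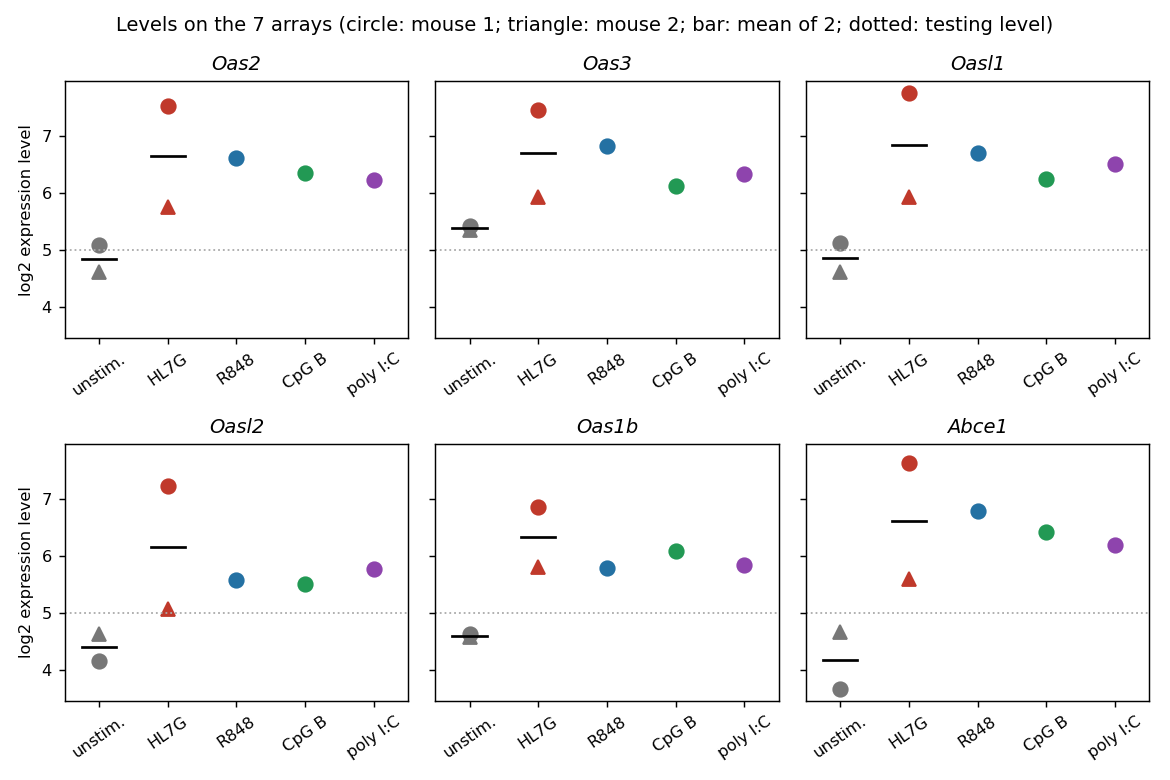
Log2 expression level (vertical axis) of the 4 measured OAS members, the paralogue Oas1b and the ribosome recycling factor gene Abce1 in each of the 5 groups; circles are mouse 1, triangles mouse 2, bars the mean of 2 arrays and the dotted line the level of 5 needed for testing. Each stimulated point lies above both unstimulated points, and the HL7G point of mouse 1 is the highest in every panel, as for Oasl1 at 7.77.

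The call of 1 in 4 members is read against a background in which 16.3% of the 11127 genes tested were called higher with HL7G and 1.89% lower (18.2% in either direction). At an unadjusted p under 0.05, 4 of 4 members passed beside 35.9% of genes. The median HL7G difference of the members was 1.78, beside 0.06 over all genes tested. At a mean level of at least 6 it was 1.80 for 3 members and 0.86 for all 1337 genes. In that brighter set 0 members and 34.2% of genes were called. The members' median was 0.80 without the HL7G array of mouse 1 and 2.76 without that of mouse 2. Stimulated and unstimulated arrays that do not overlap, with all 5 stimulated arrays higher, were found for 4 of 4 members and for 27.4% of genes. Oasl2, which reached the testing level only on stimulated arrays, was favoured by that filter in these counts. Both HL7G arrays exceeded both unstimulated arrays in 40.5% of genes, and the HL7G array of mouse 1 was the highest of all in 30.5%, as in 4 of 4 members. Calls over all genes were 1814 higher and 210 lower. That split became 1484 and 410 with median centring, 1373 and 625 with cyclic loess and 1398 and 1029 with quantile normalization of the genes tested. The members' median was not tested against other genes.

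The Oasl1 call depended on single arrays. It was lost without the unstimulated array of mouse 1 (2.24), without that of mouse 2 (1.72) and without the HL7G array of mouse 1 (1.07). Calls over all genes also fell in each of these settings, so the loss is not particular to Oasl1. Without the HL7G array of mouse 2 all 4 members were called, from 2.08 for Oas3 to 2.896 for Oasl1, with adjusted p between 0.000827 and 0.00123, in a setting that called 29.6% of all genes. Leaving out an array leaves 1 residual degree of freedom. Cyclic loess lowered Oasl1 to 1.43 and ended its call (adjusted p = 0.0638), as did median centring (1.85, adjusted p = 0.0503), no filter on low levels (adjusted p = 0.0556) and restricting the test to a mean level of 6 or more (adjusted p = 0.06996). The HL7G difference stayed above 0 for all 4 members in each setting in which they could be tested.

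**Figure D2:**
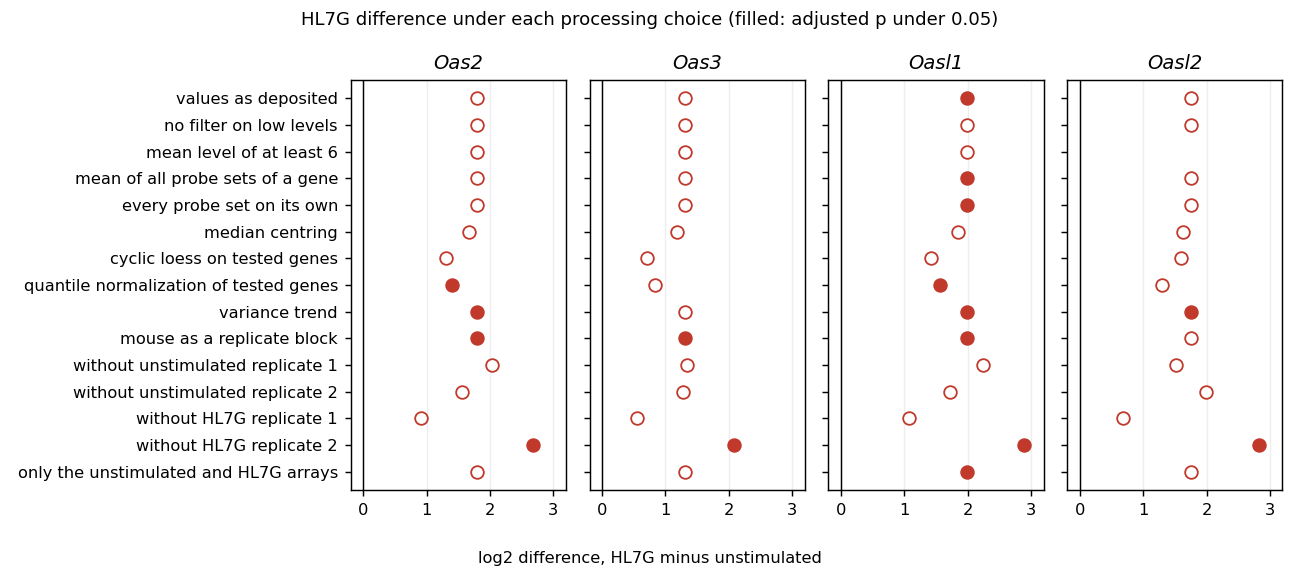
Log2 difference between HL7G and unstimulated samples (horizontal axis) for the 4 members under each processing choice (vertical axis), with filled points where the adjusted p was under 0.05. All points lie right of 0, and filled points are found for all 4 members without HL7G replicate 2; Oasl2 was not tested at a mean level of at least 6.

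The mice differed in the size of the HL7G difference for each member. The difference in mouse 1 exceeded that in mouse 2 by 1.30 for Oas2, 1.46 for Oas3, 1.30 for Oasl1 and 2.63 for Oasl2. An excess of at least 1 was thus seen in 4 of 4 members, beside 21.1% of the 4907 genes that were higher in both mice. Mouse 1 had the larger difference, by any amount, in 77.8% of those genes. With 1 sample per mouse and condition, a difference between the mice has no replicate and was not tested. In the HL7G arrays mouse 2 differed from mouse 1 by -1.78 for Oas2, -1.53 for Oas3, -1.83 for Oasl1 and -2.16 for Oasl2. In the unstimulated arrays the same difference was -0.48 for Oas2, -0.08 for Oas3, -0.52 for Oasl1 and 0.47 for Oasl2. Oas2 and Oasl1 had HL7G differences of at least 1 in both mice, as had 8.6% of genes tested.

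**Figure D3:**
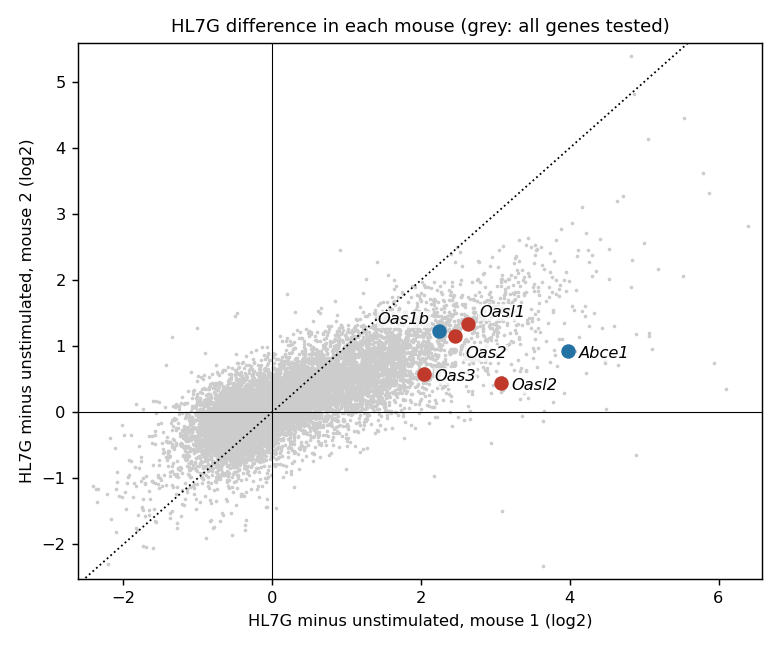
HL7G minus unstimulated log2 difference in mouse 1 (horizontal) and mouse 2 (vertical) for all 11127 genes tested (grey), the 4 members (red) and Oas1b and Abce1 (blue), with a dotted line of equal difference. The named genes all lie below that line, and Oasl2 lies farthest from it among the members, at 3.07 and 0.44.

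Abundant transcripts read low on the unstimulated arrays, above all on that of mouse 1, and the members too read lowest on the unstimulated arrays. Actb, the cytoskeletal actin, read 5.02 there against 6.81 in the unstimulated sample of mouse 2, and B2m, the beta-2 microglobulin subunit of class I molecules, read 5.74 against 7.90. On the stimulated arrays Actb lay between 7.77 and 9.34. Oas2, Oas3 and Oasl1 read slightly higher on the unstimulated array of mouse 1 than on that of mouse 2, while Oasl2 read lower there. The part of the low unstimulated readings in the members' differences was not tested. The glycolytic gene Gapdh read 9.13 and 8.75 in unstimulated cells of mouse 1 and mouse 2 and between 7.73 and 8.32 in stimulated cells, and it fell by 1.03 with HL7G (adjusted p = 0.0318). It was not called without either unstimulated array, without the HL7G array of mouse 1, with the mean of its probe sets, with a variance trend or at a mean level of 6 or more.

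The agonists gave differences of the same sign as HL7G for each member. With R848 they were 1.77 for Oas2, 1.43 for Oas3, 1.84 for Oasl1 and 1.19 for Oasl2. With poly I:C, the double-stranded RNA mimic, they were 1.39, 0.96, 1.65 and 1.38 in the same order. With CpG B they were 1.503, 0.73, 1.38 and 1.12. All agonist arrays came from mouse 1, and with the mouse as a block the differences were smaller, at 0.94, 0.33, 0.79 and 0.70 for CpG B. For R848 they were then 1.21, 1.03, 1.25 and 0.77, and for poly I:C 0.83, 0.55, 1.06 and 0.96. Standard errors lay between 0.56 and 0.77, against 0.46 and 0.63 for HL7G. The 3 comparisons share the unstimulated arrays with each other and with HL7G, so their likeness is not independent.

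In limma, 0 of 4 members were called with R848, CpG B or poly I:C, where the background was likewise 0% of genes. The lowest adjusted p was 0.176 with R848, 0.416 with CpG B and 0.523 with poly I:C. At an unadjusted p under 0.05 the counts were 3 members with R848, 0 with CpG B and 1, Oasl1, with poly I:C, beside 22.9%, 12.3% and 9.47% of all genes. Without either one of the HL7G arrays the differences were unchanged, but the spread then came from the unstimulated pair alone. R848 then had 4 members called (adjusted p between 0.00994 and 0.0334) beside 13.9% of genes. CpG B had Oas2 and Oasl1 beside 4.75% of genes, and poly I:C had Oasl1 (adjusted p = 0.0416) beside 1.78%.

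**Figure D4:**
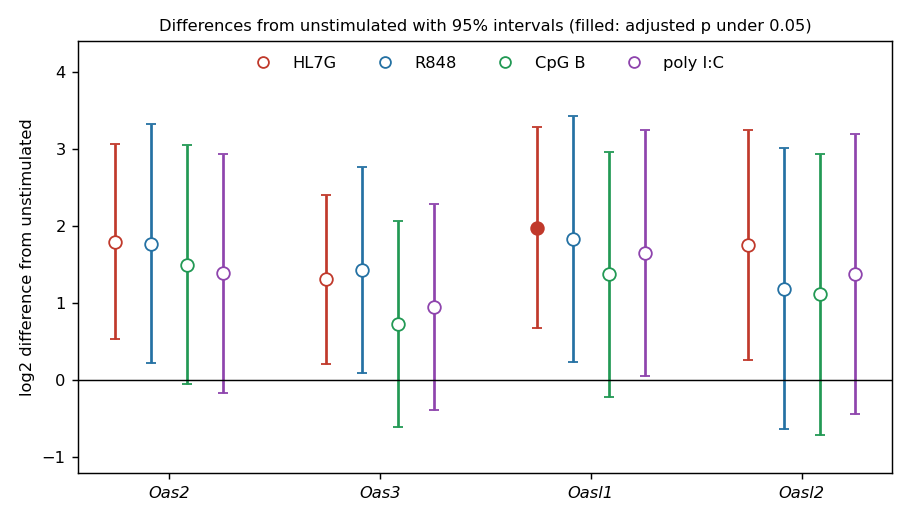
Log2 difference from unstimulated (vertical axis) of the 4 members with each stimulus, with 95% intervals from the fit and a filled point where the adjusted p was under 0.05. Only the HL7G point of Oasl1 is filled, at 1.98, and the intervals of the 4 stimuli overlap widely within each gene.

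The order of the arrays was alike across members. HL7G in mouse 1 was highest, the agonists followed, HL7G in mouse 2 came next and the unstimulated samples were lowest. This order, noticed after the values were seen, held for 4 of 4 members and for 4.26% of genes tested. Among the agonists, R848 was highest for Oas2, Oas3 and Oasl1, while poly I:C was highest for Oasl2, and R848 exceeded both other agonists in 44.1% of genes. CpG B was lowest for Oas3, Oasl1 and Oasl2, and poly I:C was lowest for Oas2. Within mouse 1, HL7G exceeded R848 by 0.92 for Oas2, 0.64 for Oas3, 1.06 for Oasl1 and 1.64 for Oasl2.

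Direct comparisons between stimuli did not separate neighbours in that order. HL7G, as the mean of both mice, differed from R848 by 0.03 for Oas2 (95% interval -1.52 to 1.58), -0.12 for Oas3 (-1.46 to 1.21), 0.15 for Oasl1 (-1.45 to 1.74) and 0.56 for Oasl2 (-1.26 to 2.39). Against CpG B the HL7G differences ran from 0.30 to 0.64 and against poly I:C from 0.34 to 0.41, with intervals reaching at most 2.46 and 2.197. R848 exceeded CpG B by 0.07 to 0.70, and the widest gap was that of Oas3 (0.70 ± 0.65). R848 minus poly I:C ran from -0.19 to 0.48, and CpG B minus poly I:C from -0.27 to 0.11. No adjusted p in these 6 comparisons was under 0.846 (limma), 0 members had an unadjusted p under 0.05, and 0% of all genes were called in any of them. Unadjusted, 5.1% of genes passed for HL7G against R848, 7.76% against CpG B and 8.09% against poly I:C. The shares were 2.97% for R848 against CpG B, 3.03% for R848 against poly I:C and 1.06% for CpG B against poly I:C. For each member and pair of stimuli the interval reached past 1 on the log2 scale in at least 1 direction, so the stimuli were not shown to act alike.

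Over the 7 arrays the members followed each other closely. Pearson's r lay between 0.927 (Oas2 with Oasl2) and 0.993 (Oas2 with Oasl1), as a description over arrays that share mice and controls. RefSeq places Oasl1 and Oasl2 as neighbouring protein-coding genes and Oas2, Oas3 and the Oas1 genes in another cluster of the same chromosome, and the closest pair, Oas2 and Oasl1, lay across these clusters. The 6 genes most like the members' mean profile, of 11123 others, were Icam1, Coro2a, Dhx8, Khnyn, Pnpt1 and Mx1. Icam1, a leukocyte adhesion molecule, had r = 0.998. Without stimulus it read 5.57 in mouse 1 and 5.46 in mouse 2, against 7.54 and 6.17 with HL7G, 6.65 with R848, 6.48 with CpG B and 6.58 with poly I:C. The other 5 had r between 0.989 and 0.991. Of the 6, Mx1, an interferon-induced antiviral GTPase, was the only one called with HL7G (2.68, both unstimulated readings under 5, limma adjusted p = 0.0314). All of the 6 but Icam1 reached the testing level only on stimulated arrays, which favours a higher call.

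Few of the other Oas1 genes reached the level needed for testing. Of the 7 paralogues Oas1b to Oas1h, 7 had a single-symbol probe set and 2 were tested. Oas1b, whose protein confers resistance to flaviviruses and which RefSeq lists as a transcribed pseudogene in the reference strain, also read higher on each stimulated array than on either unstimulated array. Without stimulus it read 4.63 in mouse 1 and 4.57 in mouse 2, against 6.87 and 5.80 with HL7G, 5.796 with R848, 6.09 with CpG B and 5.83 with poly I:C. Oas1b reached the testing level only on stimulated arrays, which favours a higher call. It rose by 1.74 ± 0.35 with HL7G (both unstimulated readings under 5, limma adjusted p = 0.0211), with 2.24 in mouse 1 and 1.23 in mouse 2. That call was lost without the unstimulated array of mouse 1 (1.76) and without that of mouse 2 (1.71), where calls over all genes also fell.

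Oas1e went the other way without passing the test (-0.83 ± 0.27, limma adjusted p = 0.0745). It read 4.86 and 5.49 in the unstimulated samples and 4.44 and 4.25 with HL7G. It reached the testing level only on the unstimulated array of mouse 2, which favours a lower call. Oas1c lay between 3.87 and 4.71, Oas1d between 3.18 and 3.42, Oas1f between 3.55 and 3.899, Oas1g between 3.58 and 4.18 and Oas1h between 2.47 and 3.11, all under the testing level. The promoter windows of Oas1c and Oas1g each held 2 ISRE core matches although neither gene reached that level. Near-identical Oas1 copies can share probes, so readings within this cluster are uncertain.

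Downstream of oligoadenylate synthesis, Abce1 rose with HL7G while Pde12 stayed dim. Abce1 encodes a ribosome recycling factor that is also known for restraining the oligoadenylate response. Without stimulus it read 3.66 in mouse 1 and 4.67 in mouse 2, against 7.64 and 5.60 with HL7G, 6.79 with R848, 6.42 with CpG B and 6.19 with poly I:C. The array order was that of the OAS members, but the spread of the unstimulated samples was wider, with mouse 1 low as for Actb. Abce1 reached the testing level only on stimulated arrays, which favours a higher call. It rose by 2.45 ± 0.65 (both unstimulated readings under 5, limma adjusted p = 0.0419), with 3.98 in mouse 1 and 0.93 in mouse 2. The call was lost without the unstimulated array of mouse 1 (1.95) or mouse 2 (2.96) and without the HL7G array of mouse 1 (1.43). Calls over all genes also fell in each of these settings. Pde12, a phosphodiesterase that degrades the oligoadenylates, lay between 4.10 and 4.58 and was not tested.

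Genes of the interferon receptor and ISGF3, upstream of the OAS genes, formed a list of 10. Of these 9 were tested, with 6 called higher and 0 lower, beside 16.3% and 1.89% of all genes. Their median was 1.90, beside 0.06 over all genes. At a mean level of at least 6, 4 of 6 were called higher, beside 31.2% of all genes. The median there was 2.10, beside 0.86 over all genes. Usp18, a negative regulator of the receptor, rose by 2.80 ± 0.48 (adjusted p = 0.0146), Stat2 by 2.75 ± 0.43 (adjusted p = 0.0133) and the kinase Jak1 by 2.23 ± 0.33 (adjusted p = 0.0124). Irf9, the DNA-binding subunit of ISGF3, rose by 1.90 ± 0.21 (limma adjusted p = 0.0120). Unlike the OAS members, it rose by nearly equal amounts in the mice, 1.88 in mouse 1 and 1.92 in mouse 2. Stat2 and Irf9 had both unstimulated readings under 5 and reached the testing level only on stimulated arrays, which favours a higher call. Irf7, whose translation Oasl1 represses, had 3.22 in mouse 1 and 0.73 in mouse 2, an unevenness like that of Oasl2. It was not called (1.97 ± 0.65, adjusted p = 0.0763).

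The list on double-stranded RNA sensing, which holds sensors, their adaptors and an editing enzyme, had 5 of 8 tested genes called higher and 0 lower, beside 16.3% and 1.89% of all genes, with a median of 2.08. The adaptors Mavs (-0.059) and Ticam1 (-0.32) and the helicase gene Dhx58 (1.77, adjusted p = 0.0613) were not called. Ifih1, the sensor MDA5, rose by 2.91 ± 0.47 (adjusted p = 0.0139), and Eif2ak2, the kinase PKR, by 2.73 ± 0.60 (adjusted p = 0.0255). Ddx58, the sensor RIG-I, rose by 2.39 ± 0.46 (adjusted p = 0.0192) and Zbp1, a sensor of left-handed nucleic acid, by 2.39 ± 0.48 (adjusted p = 0.0204). Adar, the RNA-editing enzyme that limits double-stranded RNA sensing, made up the 5 (1.57 ± 0.35, limma adjusted p = 0.0269). Ifih1, Eif2ak2, Ddx58 and Dhx58 had both unstimulated readings under 5 and reached the testing level only on stimulated arrays, which favours a higher call. Tlr3, the endosomal receptor for poly I:C, stayed between 3.49 and 4.41 and was not tested.

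Without the unstimulated array of mouse 1 the medians were 1.78 for the ISGF3 list and 2.08 for the sensor list. Without that of mouse 2 they were 1.94 and 1.87 in the same order. Both lists lost calls in these settings, where calls over all genes also fell, so the loss is not particular to these lists. Cyclic loess left 3 calls in the sensor list (median 1.40). Both medians stayed above 1.2 in every setting run.

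**Figure D5:**
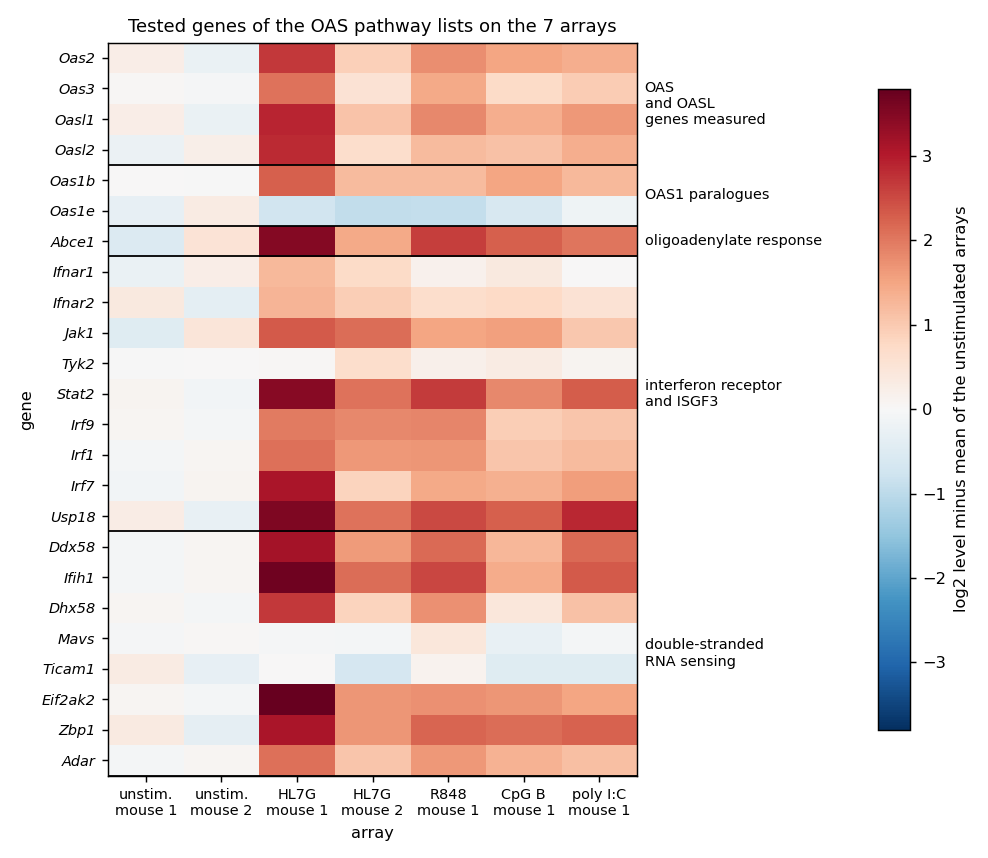
Log2 level minus the mean of the unstimulated arrays (colour) for the tested genes of the OAS family, oligoadenylate response, interferon receptor and ISGF3 and double-stranded RNA sensing lists (rows) on the 7 arrays (columns). For Oas2, Oas3, Oasl1 and Oasl2 the HL7G array of mouse 1 is the darkest of the 7, and the HL7G array of mouse 2 is paler for them than for Irf9 or Stat2.

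Type I interferon genes encode the cytokines that induce the OAS family. Of 17 listed genes 6 were tested, with 0 called higher and 2 lower, beside 16.3% and 1.89% of all genes. Their median was -0.46, beside 0.06 over all genes. Ifna4 fell by 1.17 (limma adjusted p = 0.0350) and Ifna6 by 0.94 (limma adjusted p = 0.0332), while Ifna14 (-0.58) and Ifna15 (-0.34) were not called. Ifna6 read 5.18 and 5.32 without stimulus and reached the testing level on no stimulated array, which favours a lower call. Its HL7G readings were 4.14 in mouse 1 and 4.48 in mouse 2. Without either unstimulated array 0 were called, without either HL7G array 1 was, and 4 were called lower after cyclic loess and after quantile normalization. Ifnb1, the interferon made early by stimulated myeloid cells, lay between 2.93 and 3.58 and was not tested.

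Some markers of other cells were called with HL7G beside the OAS genes. Of 9 tested B cell markers 7 were called higher, where 16.3% of all genes were, and their summed log2 level over 10 markers lay between 48.3 and 50.8 in unstimulated and between 54.4 and 61.8 in stimulated samples. Of 8 tested T cell markers 4 were called higher (45.3 to 46.6 against 48.2 to 54.4 over 9 markers). The B cell markers Ms4a1, Fcer2a and Ebf1 and the T cell marker Cd3g reached the testing level only on stimulated arrays, which favours a higher call. Monocyte markers had 2 of 5 called higher, Irf8 and Lyz2 (43.3 to 45.0 against 45.5 to 48.5 over 9 markers), while Cx3cr1 had -0.82 (adjusted p = 0.0693). With median centring, cyclic loess or quantile normalization 1 monocyte marker was called lower. Of plasmacytoid dendritic cell markers 0 of 6 were called (37.8 to 39.9 against 39.7 to 43.0 over 8 markers). The counts called were 0 of 2 for NK cells (median -0.53), 0 of 5 for neutrophils (-0.34) and 0 of 3 for erythroid cells (-0.16). Conventional dendritic cell markers had 1 of 5 called higher (0.13) and red pulp macrophage markers 1 of 4 (0.18). In bulk samples more cells of a type and more RNA per cell cannot be told apart, and the part of these markers in the OAS differences was not tested. Without the unstimulated array of mouse 1 these lists lost their calls, as did nearly all genes. The median HL7G differences were then 1.03 for B cell, 0.89 for T cell and 0.41 for monocyte markers. Without the unstimulated array of mouse 2 they were 1.54, 0.87 and 0.73 in the same order. Without the HL7G array of mouse 2 they were 1.28, 1.01 and 0.47, and 0.57 for plasmacytoid dendritic cell markers.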

How the data were processed

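The authors deposited log2 expression levels for 41345 probe sets, 1 column per array, made with RMA, per the submitters' processing notes, which also name the programs Transcriptome Analysis Console and Affymetrix Expression Console, without versions. Array medians lay between 4.40 and 4.54. The sources used here do not give the array design's genome build. GEO's platform annotation named 23521 probe sets with 1 symbol, 1814 with several and 16010 with none, and 23328 were matched to RefSeq (GRCm38.p6) by Entrez identifier. A gene was tested if a single-symbol probe set reached 5 on at least 1 array, and the brightest such probe set was used, which left 11127 genes. limma 3.58.1 in R 4.3.3 fitted all 7 arrays with 5 groups, with 2 residual and 4.94 prior degrees of freedom, 2-sided moderated tests and p-values adjusted by Benjamini-Hochberg over these 11127 genes (called under 0.05). The function was tested on simulated data. Agonists with 1 array were assumed to vary like the other groups, and p-values rest on 2 animals.

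Each mouse number marks 1 animal and pairs its arrays (mouse deviations of the unstimulated and HL7G arrays had r = -0.146 across genes), and a mouse block was tried. Named genes were the members, all Oas1 paralogues, Abce1 and Pde12, up to 4 genes with the largest HL7G difference in each other pathway list plus fixed sensors and regulators, and the 6 genes most correlated with the members' mean profile. Irf9, Adar, Mavs, Ticam1, Dhx58, Lyz2, Irf8 and Cx3cr1 were named after their values were seen. The members and lists were chosen with earlier results of these data known.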

Additional observations from a re-analysis of the deposited data

How the results depend on the processing

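Against unstimulated, all differences of the 4 members kept their sign in every setting run. With HL7G, 1 member was called as deposited, 0 with no filter on low levels, a mean level of at least 6, median centring or cyclic loess, 2 with quantile normalization (21.8% of all genes called), 3 with a variance trend (21.7%) and 3 with the mouse as a replicate block (16.6%). Leaving out 1 array gave 0 to 4 members with HL7G, 0 to 4 with R848, 0 to 2 with CpG B and 0 to 1 with poly I:C. In the direct comparisons 0 members were called in any setting. The block changed no other member call. The median of all genes with HL7G moved from 0.06 to -0.07 with median centring, -0.08 with cyclic loess and -0.12 with quantile normalization, and to -0.12 with no filter and 0.86 at a mean level of at least 6. Over all genes, HL7G gave 2024 calls as deposited, against 457 of 1337 genes at a mean level of at least 6 and 2, 862, 1342 and 3298 without the unstimulated array of mouse 1, that of mouse 2, the HL7G array of mouse 1 and that of mouse 2.

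Signs changed only among direct differences, none of them called. With quantile normalization HL7G minus R848 was -0.18 for Oas2 and -0.086 for Oasl1, HL7G minus CpG B was -0.10 for Oas2, and R848 minus poly I:C was -0.037 for Oasl1. HL7G minus poly I:C was then -0.020 for Oas2, -0.084 for Oas3, -0.12 for Oasl1 and -0.0060 for Oasl2. HL7G minus R848 was -0.022 for Oas2 with cyclic loess and 0.28 for Oas3 with the mouse as a block. Leaving out 1 array, HL7G minus R848 ran from -0.86 to 0.92 for Oas2, -0.89 to 0.64 for Oas3, -0.77 to 1.06 for Oasl1 and -0.51 to 1.64 for Oasl2. HL7G minus CpG B ran from -0.59 to 1.19, -0.19 to 1.34, -0.30 to 1.52 and -0.44 to 1.72 in the same order, and HL7G minus poly I:C from -0.48 to 1.30, -0.41 to 1.12, -0.58 to 1.25 and -0.70 to 1.46. The cause was not tested. Only 2 residual degrees of freedom and log2 levels near 5 in unstimulated cells limit what these arrays can separate.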
